A study of Mus musculus with 6 samples.

Results

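The Snrpn, Ndn, Magel2 and Mkrn3 domain of mouse chromosome 7 is a cluster of imprinted genes, read here as CpG methylation in the neocortex at postnatal day 5. Its members were the CpGs of 2 intervals of the mm39 genome, chr7:59625000-59800000 around Snrpn and chr7:61990000-62120000 around Ndn, Magel2 and Mkrn3. A CpG entered when it had at least 10 reads, summed over both strands, in at least 2 samples of each genotype. Of 184 CpGs listed there in any library, 101 entered, out of 881438 in the whole series. The Snrpn interval gave 21 of its 31 listed CpGs and the Ndn, Magel2, Mkrn3 interval gave 80 of 153, and 55 of the 101 were covered in all 6 samples.

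The study compared 3 Chd8+/- samples, which carry 1 mutant copy of the chromatin remodeller gene Chd8, with 3 wild-type (WT) samples. Chd8+/- mice are used as a model of the human neurodevelopmental disorder caused by CHD8 mutation. DNA came from whole neocortex and was assayed by RRBS, bisulfite sequencing of a reduced part of the genome: the enzyme MspI cuts at CCGG, and only CpGs near such sites are read. The kind of Chd8 mutation is not in the labels, and nothing there ties each sample to its own animal. P-values therefore describe the spread between these samples, which may be technical. Listed cytosines numbered 953724 to 1090948 in Chd8+/- libraries and 1199498 to 1400708 in WT libraries, with a median coverage of 20 to 24 reads over all 6. Chromosome X held 2.56% of the summed coverage in Chd8+/- replicate 3 and 2.58% in WT replicate 3, against 1.18% to 1.21% in the other 4 libraries. Whether this bears on any result was not tested, and regional differences are also given without replicate 3. The domain CpGs had a median of 35 reads per library and a range of 10 to 207 reads. The 95% Wilson interval of 1 CpG in 1 library was 4.37 to 51.9 percentage points wide, with a median of 25.3, and covers counting error only.

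In the mouse, as in human, Snrpn, Ndn, Magel2 and Mkrn3 are expressed from the copy inherited from the father. The promoter of Snrpn lies in the imprinting centre of the domain, where the copy inherited from the mother is methylated and the paternal copy is not, so a tissue with both copies gives an intermediate level. Loss of the paternal genes in human causes Prader-Willi syndrome. Snrpn encodes SmN, a core protein of spliceosomal particles in neurons, and shares its transcript with the short upstream reading frame Snurf. Ndn encodes necdin and Magel2 encodes another protein of the MAGE family, and both act in neurons. Mkrn3 encodes a makorin RING-finger protein that restrains the onset of puberty. Peg12, next to Mkrn3 in the same cluster, encodes a FRAT-family protein that binds the kinase GSK3.

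The promoter sequences of the 4 genes are shown because their CpG spacing was used to place the gene starts. Each holds 250 bases before and 50 after the gene start, from RefSeq on GRCm38.p6, in the direction of transcription. Capitals mark CpGs that were listed in at least 1 library, after the sequence was placed on the mm39 positions by its CpG spacing.
Snrpn: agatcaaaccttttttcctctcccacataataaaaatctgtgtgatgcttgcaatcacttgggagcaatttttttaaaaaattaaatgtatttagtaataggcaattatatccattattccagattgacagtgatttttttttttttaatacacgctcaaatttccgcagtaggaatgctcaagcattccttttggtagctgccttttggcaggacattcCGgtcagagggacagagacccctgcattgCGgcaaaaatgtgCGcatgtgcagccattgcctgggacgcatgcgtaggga
Ndn: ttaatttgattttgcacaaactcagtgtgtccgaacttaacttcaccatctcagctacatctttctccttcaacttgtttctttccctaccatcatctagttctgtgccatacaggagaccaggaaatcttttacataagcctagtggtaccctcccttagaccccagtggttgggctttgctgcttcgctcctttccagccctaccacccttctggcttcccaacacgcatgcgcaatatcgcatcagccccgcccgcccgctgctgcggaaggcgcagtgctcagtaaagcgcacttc
Magel2: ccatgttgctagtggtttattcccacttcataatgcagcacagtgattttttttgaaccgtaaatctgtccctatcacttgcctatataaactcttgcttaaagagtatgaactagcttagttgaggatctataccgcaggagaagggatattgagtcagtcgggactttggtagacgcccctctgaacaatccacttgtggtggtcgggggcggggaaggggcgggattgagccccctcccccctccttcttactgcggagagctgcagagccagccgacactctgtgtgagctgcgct
Mkrn3: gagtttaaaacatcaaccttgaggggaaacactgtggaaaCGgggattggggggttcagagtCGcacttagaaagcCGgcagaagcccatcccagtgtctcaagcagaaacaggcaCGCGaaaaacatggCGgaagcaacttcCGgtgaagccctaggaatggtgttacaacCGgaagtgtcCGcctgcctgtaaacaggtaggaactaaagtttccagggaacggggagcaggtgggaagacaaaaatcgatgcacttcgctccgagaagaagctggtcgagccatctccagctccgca
The Mkrn3 sequence holds 15 CpGs and 3 CCGG sites, and 9 of its CpGs were listed. That spacing fitted 1 place on chromosome 7, with the next best place at 4 CpGs, and put the start at position 62069901 on the minus strand. The Snrpn sequence shown is the 1 of 4 RefSeq Snrpn promoters that could be placed. It holds 7 CpGs and 1 CCGG site, and 3 of its CpGs were listed. It had a single best place inside the Snrpn interval, with the start at 59654947 on the minus strand. On the whole chromosome, however, 24 places, this one included, matched 3 CpGs and 1 matched 4, so this start rests on the interval. The Ndn and Magel2 sequences hold 11 and 10 CpGs and 0 CCGG sites, and no listed CpGs could be tied to them. Neither was placed, so their lack of capitals does not show whether their CpGs were read. CpG clusters on the Ndn and Magel2 side of Mkrn3 are therefore given by position, and which gene they belong to was not settled.

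Motifs were searched in these 300 bases on both strands, with the share of all 32851 RefSeq mouse promoters that hold each. The NRF1 core GCATGCG, found in 3.58% of promoters, occurred once each in the Snrpn and Ndn sequences and not in those of Magel2 and Mkrn3. The YY1 motif AANATGGCG, found in 2.38% of promoters, was in the Mkrn3 sequence, as were 2 sites of the ETS motif CCGGAAGT, found in 3.89% of promoters, and each of the 2 contains a CCGG site. The GC box GGGCGGGG, found in 17.6% of promoters, was in the Ndn and Magel2 sequences. CCGG itself was in 52.8% of promoters. These matches are descriptions of the letters.

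At the Snrpn start, 12 CpGs within 500 bp either side had an intermediate mean level of 44.9% over the 6 samples. Their mean level was 42.3%, 40.5% and 75.04% in Chd8+/- replicates 1 to 3, and 28.4%, 29.8% and 53.3% in WT replicates 1 to 3. Replicate 3 was the highest of its genotype in both groups, and the groups overlapped. The means were 52.6% ± 19.4 in Chd8+/- and 37.2% ± 14.0 in WT (SD, n = 3 each), a difference of 15.4 points (SE 13.8; exact two-sided permutation p = 0.4, where 3 against 3 cannot go below 0.1). Without replicate 3 of both genotypes the difference was 12.3 points, and in replicate 3 alone it was 21.8 points. Leaving out Chd8+/- replicate 3 only, it was 4.23 points. The same 12 CpGs make up the window chr7:59654501-59655000.

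The 12 CpGs fell into 3 runs in which neighbours lie at most 50 bp apart, close enough for the same molecules to be read at several CpGs. The 3 CpGs from 29 bp upstream of the start to 13 bp downstream averaged 58.3%, 76.7% and 69.7% in Chd8+/- and 29.5%, 31.7% and 67.0% in WT. WT replicate 3 stood with the Chd8+/- libraries there, and the other 2 WT libraries were below them. The 3 CpGs from 107 to 147 bp downstream averaged 21.96%, 37.4% and 43.5% in Chd8+/- and 34.6%, 41.6% and 23.6% in WT, so the genotypes were mixed. The 6 CpGs from 299 to 347 bp downstream had the widest spread, with 55.3%, 23.9% and 93.5% in Chd8+/- and 6.45%, 23.0% and 61.2% in WT. In replicate 1 of both genotypes only 1 of those 6 CpGs was covered, so its value is not over the same CpGs. A further pair, 549 and 597 bp downstream, averaged 37.8%, 56.7% and 32.2% in Chd8+/- and 40.8%, 39.7% and 22.5% in WT.

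**Figure D1:**
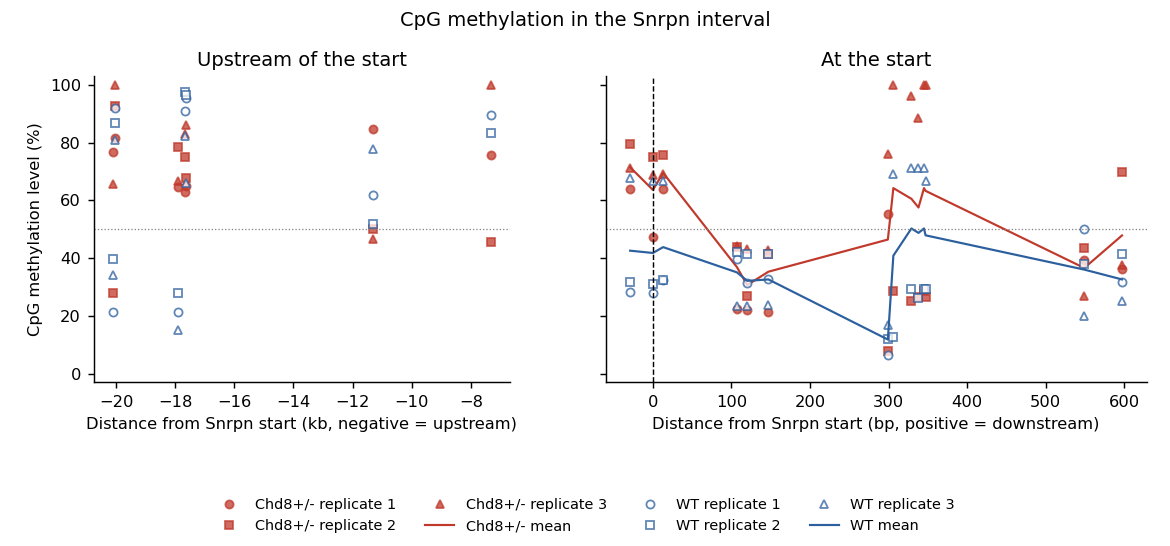
Methylation level in percent of each CpG of the Snrpn interval that passed the coverage rule, against its distance from the Snrpn start in kb (left, upstream) and bp (right, around the start). Points are single libraries, filled for Chd8+/- and open for WT, with 1 marker shape per replicate number; lines on the right are genotype means over the libraries that cover each CpG. The 3 CpGs at the start lie between 27.8% and 79.4%, and the points 299 to 347 bp downstream run from 6.45% to 100%.

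Keeping only CpGs covered in all 6 samples set the libraries on the same sites and changed the order at Snrpn. The 7 such CpGs within 500 bp of the start averaged 42.3%, 50.01% and 59.4% in Chd8+/- and 28.4%, 33.1% and 41.3% in WT. Every Chd8+/- library was above every WT library, the nearest being Chd8+/- replicate 1 at 42.3% and WT replicate 3 at 41.3%. The difference was 16.3 points (SE 6.21; exact two-sided permutation p = 0.1, the smallest that 3 against 3 allows). Over the 15 such CpGs of the whole Snrpn interval the levels were 53.8%, 57.0% and 61.9% in Chd8+/- and 44.2%, 47.5% and 46.0% in WT, again without overlap, with a difference of 11.7 points (SE 2.52; exact permutation p = 0.1). Across the genome, 7.11% of 500-bp windows at 30% to 70% built from CpGs covered in all 6 samples had every Chd8+/- library above every WT library, and 4.85% of such windows at any level did. With all 21 CpGs of the Snrpn interval the genotypes overlapped, at 55.2%, 49.4% and 72.0% in Chd8+/- and 47.1%, 43.9% and 52.0% in WT, a difference of 11.2 points (SE 7.20; exact permutation p = 0.2). Without replicate 3 of both genotypes that difference was 6.80 points, and in replicate 3 alone it was 20.02 points.

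Upstream of Snrpn the measured CpGs were few and mostly more methylated. A CpG 7325 bp upstream had a mean of 78.8% over 5 libraries, 1 at 11299 bp upstream had 62.1% over 6, and 1 at 20019 bp upstream had 89.0% over 6. The CpG 20119 bp upstream had 76.9%, 27.9% and 65.6% in Chd8+/- and 21.4%, 39.8% and 34.2% in WT. The window chr7:59672501-59673000, whose middle lies 17.8 kb upstream, held 3 CpGs with 64.2%, 73.8% and 78.6% in Chd8+/- and 69.4%, 74.0% and 54.5% in WT. The difference of 6.22 points (SE 7.23; exact permutation p = 0.6) was -2.69 points without replicate 3 and 24.1 in replicate 3. Its mean of 69.1% over the 6 samples lies just inside the upper limit of 70%, and its CpGs did not share 1 level. A pair 17637 and 17679 bp upstream averaged 73.3% ± 10.4 in Chd8+/- and 88.3% ± 12.2 in WT (SD, n = 3 each). The third CpG of the window, 17897 bp upstream, had 64.7%, 78.6% and 66.7% in Chd8+/- and 21.4%, 27.8% and 15.0% in WT, from 14 to 34 reads per library. The genotypes were fully apart at that CpG, and the pair beside it differed in the opposite direction.

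In 500-bp windows with at least 3 CpGs, 12 windows were measured in the domain, 10 of them in all 6 samples. A window was called near 50% when the mean of the sample levels was 30% to 70%. By that rule 6 of 12 windows were near 50%, against 14.2% of 106184 autosomal windows, while 5 were under 30% and 1 was over 70%. The count rested on the limits: at 35% to 65% it was 2 of 12, the Snrpn start and chr7:62068501-62069000, against 10.2% of autosomal windows, and at 25% to 75% it was 9 of 12, against 20208 of the 106184 autosomal windows. Of the 101 single CpGs, 48 had a mean of 30% to 70%, 44 were below it and 9 above it. In the genome, 108021 of 864621 autosomal CpGs had a mean of 30% to 70%. In the Snrpn interval 16 of 21 CpGs were intermediate and 1 was below 30%, whereas in the Ndn, Magel2, Mkrn3 interval 32 of 80 were intermediate and 43 were below 30%.

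**Figure D2:**
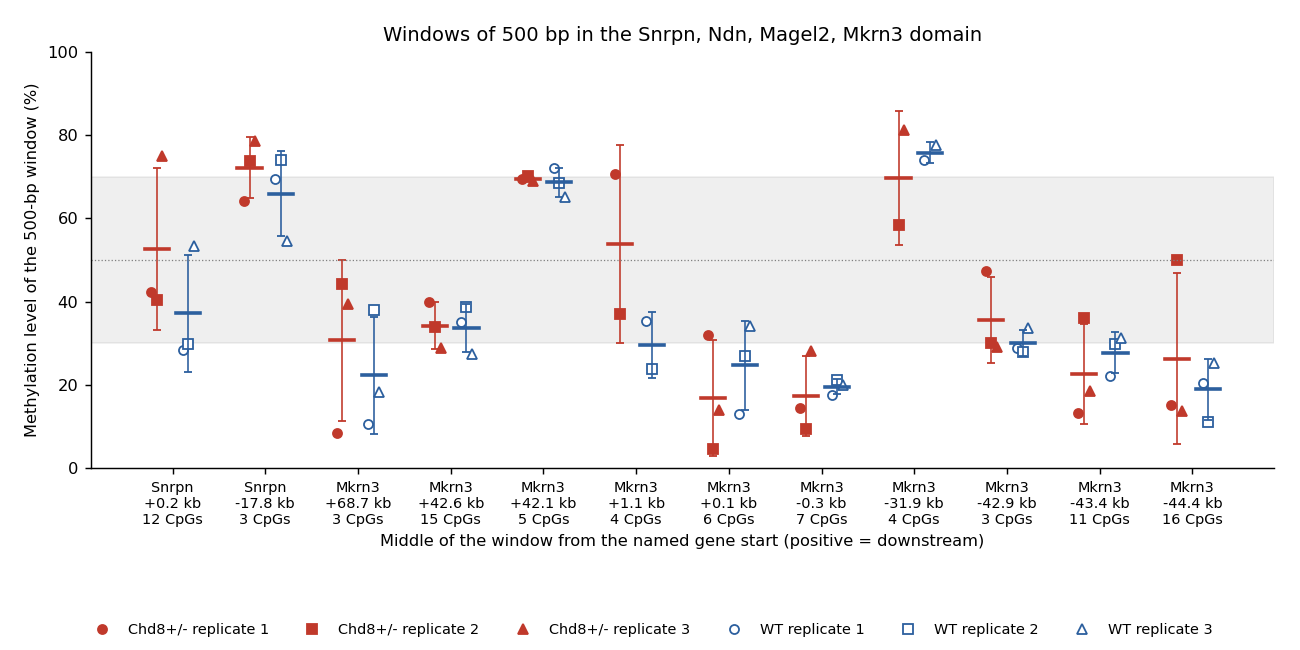
Methylation level in percent of the 12 windows of the domain, ordered by position and labelled by the distance of the window's middle from the Snrpn or Mkrn3 start and by the number of CpGs. Points are libraries, with Chd8+/- filled at the left and WT open at the right of each window; thick bars are means, thin bars are SD, and the grey band marks 30% to 70%. The window 42.15 kb downstream of the Mkrn3 start lies between 65.2% and 72.2% in all 6 libraries, and the Snrpn start runs from 28.4% to 75.04%. In both windows the libraries do not all cover the same CpGs.

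**Figure D3:**
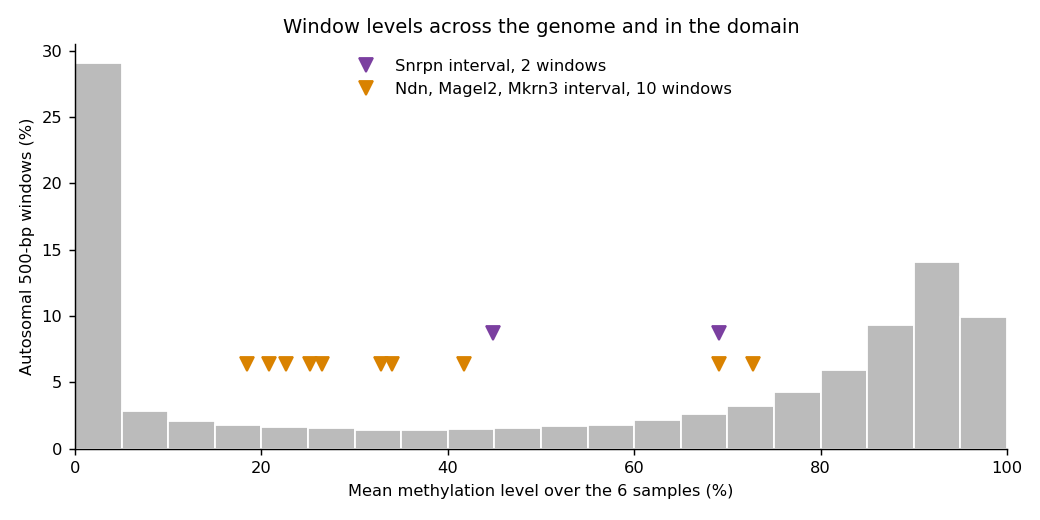
Percentage of 106184 autosomal 500-bp windows in each 5-point bin of mean methylation level over the 6 samples (bars), with the levels of the 2 windows of the Snrpn interval and the 10 of the Ndn, Magel2, Mkrn3 interval as triangles, whose height carries no value. The genome piles up at both ends, with 29.0% of windows under 5%, and the domain windows lie between 18.4% and 72.8%.

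On the Ndn and Magel2 side of Mkrn3, the touching windows chr7:62027001-62027500 and chr7:62027501-62028000 were both within 30% to 70%, with means of 34.0% and 69.1% over the 6 samples, and both outside 35% to 65%. They were the only touching windows within 30% to 70% in the domain. The first, its middle 42.65 kb downstream of the Mkrn3 start, held 15 CpGs and read 39.96%, 33.9% and 28.8% in Chd8+/- and 35.03%, 38.8% and 27.4% in WT. All 6 libraries were within 12.5 points of each other, and the difference was 0.47 points (SE 4.64; exact permutation p = 0.8), or 0.013 points without replicate 3 and 1.39 in replicate 3. Single CpGs in it ranged widely, with a mean of 8.35% at position 62027102 and 57.7% at 62027192. The second window held 5 CpGs and read 69.4%, 70.2% and 68.9% in Chd8+/- and 72.2%, 68.6% and 65.2% in WT, the narrowest spread of the domain's windows with a range of 6.95 points. Chd8+/- replicate 2 lacked the window's CpG at 62027849, so these values are not all over the same CpGs. The difference there was 0.81 points (SE 2.04; exact permutation p = 0.7), or -0.62 points without replicate 3 and 3.69 in replicate 3. Over the CpGs of this window covered in all 6 samples, which leave out 62027849, it was 5.75 points (exact permutation p = 0.1), without overlap. Across the genome, 7.11% of windows at 30% to 70% built from such CpGs had every Chd8+/- library above every WT library. The lowest CpG of the second window was at 62027553 with a mean of 54.3% and its highest at 62027849 with 84.3%. Methylation stepped up along the stretch towards Mkrn3, and the next measured CpG, at 62029875, had a mean of 85.8%.

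Further from Mkrn3 on the same side, the window chr7:62001001-62001500 held 3 CpGs, its middle 68.65 kb downstream of the Mkrn3 start, and read 8.44%, 44.2% and 39.4% in Chd8+/- and 10.6%, 37.9% and 18.3% in WT. Replicate 1 was the lowest library of both genotypes. A single CpG at 62000964 beside them read 92.3%, 78.1% and 79.3% in Chd8+/- and 19.2%, 33.3% and 23.8% in WT, from 21 to 45 reads per library. The lowest Chd8+/- library had a 95% Wilson interval of 61.2% to 89.0%, and the highest WT library one of 21.4% to 47.9%. Such intervals cover counting error only and do not compare the genotypes. The CpG at 62000964 had the largest genotype difference, 57.8 points, among the 55 CpGs covered in all 6 samples, and is named for that value. Every Chd8+/- library was above every WT library at 6.40% of autosomal CpGs at 30% to 70% with all 6 samples.

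The promoter of Mkrn3 was mostly below the intermediate range. Its 11 CpGs within 500 bp of the start averaged 22.3%, 3.82% and 19.9% in Chd8+/- and 11.7%, 21.6% and 22.9% in WT. Chd8+/- replicate 2 was the lowest library, and the groups overlapped. The means were 15.3% ± 10.03 in Chd8+/- and 18.8% ± 6.18 in WT (SD, n = 3 each), a difference of -3.43 points (SE 6.80; exact permutation p = 0.6). It was -3.61 points without replicate 3 and -3.09 in replicate 3. Over the 5 of these CpGs covered in all 6 samples the difference was 6.37 points, and without Chd8+/- replicate 2 it was 2.31 points, so its direction rested on which CpGs and libraries were kept. The run of 7 CpGs from 67 to 173 bp upstream, which the capitals of the Mkrn3 sequence mark, had 18.1%, 6.87% and 31.2% in Chd8+/- and 11.7%, 12.3% and 13.3% in WT. The 3 WT libraries were close together there, and the Chd8+/- libraries lay on both sides of them. The pair 545 and 592 bp upstream read 24.2%, 19.98% and 31.1% in Chd8+/- and 33.6%, 35.9% and 45.8% in WT, from 86 to 207 reads.

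Near-50% methylation at Mkrn3 lay downstream of its start. The window chr7:62068501-62069000 held 4 CpGs, its middle 1.15 kb downstream, and was covered in 2 libraries of each genotype. It read 70.7% and 36.9% in Chd8+/- replicates 1 and 2 and 35.3% and 23.9% in WT replicates 1 and 2, while replicate 3 of both genotypes had no CpG at 10 reads. The difference of 24.2 points (SE 17.8) had an exact permutation p of 0.333, the smallest that 2 against 2 allows. Its lowest CpG, 62068962, had a mean of 22.9% and its highest, 62068948, a mean of 60.9%. The means were 24.1% at 62068956 and 58.9% at 62068936, so no CpG of the window stood close to the window's mean of 41.7%. Between this window and the start lay 2 further groups of CpGs. A pair 849 and 891 bp downstream averaged 38.7% and 53.3% in Chd8+/- replicates 1 and 3 and 51.4%, 20.5% and 45.2% in WT. The 4 CpGs from 267 to 308 bp downstream averaged 29.5%, 0% and 0% in Chd8+/- and 38.0% and 39.8% in WT replicates 2 and 3. The counts of 0 came from 10 to 14 reads and allow a level of up to 21.4% to 30% at a CpG, and WT replicate 1 had no CpG at 10 reads there.

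**Figure D4:**
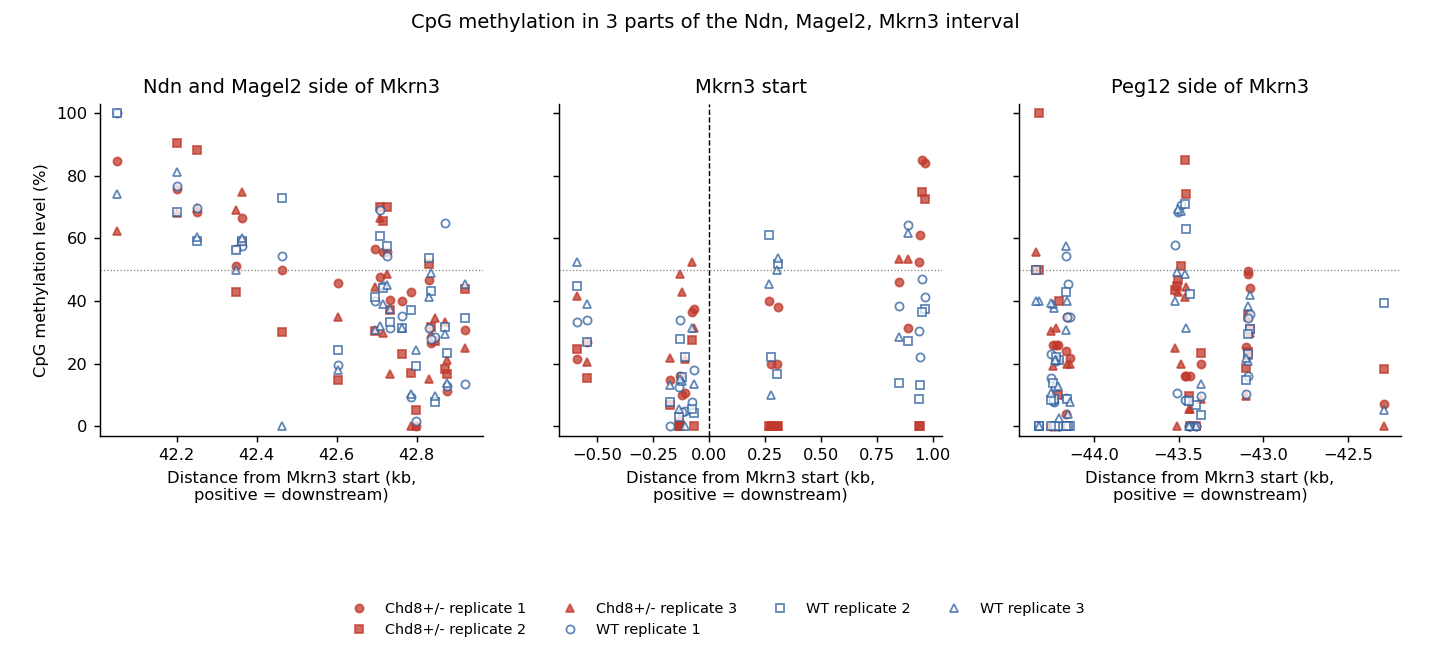
Methylation level in percent of single CpGs in 3 parts of the Ndn, Magel2, Mkrn3 interval against distance from the Mkrn3 start in kb, with positive values downstream. Points are single libraries, filled for Chd8+/- and open for WT, with 1 marker shape per replicate number. Levels in the left panel fall from a mean of 84.3% at 62027849 towards the far side, and most points within 173 bp upstream of the Mkrn3 start lie under 30%.

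On the Peg12 side of Mkrn3, levels were low to intermediate. The window chr7:62112501-62113000, its middle 42.85 kb upstream of the Mkrn3 start, held 3 CpGs and read 47.4%, 30.02% and 29.2% in Chd8+/- and 28.8%, 27.8% and 33.7% in WT. Chd8+/- replicate 1 stood above the other 5 libraries, and the difference was 5.41 points (SE 6.22; exact permutation p = 0.5), or 10.4 points without replicate 3 and -4.57 in replicate 3. CpG means in it ran from 26.9% at 62112993 to 36.0% at 62112991. The window beside it, chr7:62113001-62113500, had 11 CpGs and read 13.3%, 36.1% and 18.4% in Chd8+/- and 22.2%, 29.9% and 31.2% in WT. Peg12's promoter sequence matched 3 listed CpGs at a single best place in the interval. On the whole chromosome 170 places, this one included, matched 3 CpGs and 6 matched more, so this start rests on the interval. On that placement 16 CpGs within 500 bp of its start averaged 15.2%, 50% and 13.7% in Chd8+/- and 20.5%, 10.98% and 25.3% in WT. Chd8+/- replicate 2, which had 55 reads there in all against 309 to 460 in the other libraries, was far above the rest, and without it the difference of 7.37 points became -4.48. Without replicate 3 of both genotypes it was 16.8 points, and in replicate 3 alone it was -11.6 points. Over CpGs covered in all 6 samples it was 13.8 points (exact permutation p = 0.1). That value rests on only the CpGs at 62114109 and 62114117, each with 10 reads in Chd8+/- replicate 2. Over CpGs with at least 20 reads the difference was -1.80 (exact permutation p = 0.9). Chd8+/- replicate 2 had at most 12 reads per CpG there and dropped out. On the side towards Mkrn3 the window chr7:62101501-62102000 was over 70%, with 58.3% and 81.1% in Chd8+/- replicates 2 and 3 and 74.0% and 77.6% in WT replicates 1 and 3.

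Tested over all windows of the genome with edgeR's quasi-likelihood test on methylated and unmethylated reads, no window of the domain was called between genotypes. With Benjamini-Hochberg adjustment over 102748 windows, 0 of 12 domain windows and 0% of genome windows had an adjusted p under 0.05, so no call was made anywhere with which the domain could be compared. At an unadjusted p under 0.05 there were 0 of 12 in the domain and 3.51% of windows in the genome. The domain's lowest unadjusted edgeR p values were 0.252 at the Snrpn start and 0.306 at chr7:62070001-62070500 just upstream of Mkrn3, both with an adjusted p of 1.00. The window upstream of Mkrn3 read 14.5%, 9.36% and 28.1% in Chd8+/- and 17.6%, 21.2% and 19.9% in WT, a difference of -7.47 points without replicate 3 and 8.18 in replicate 3. By limma, 0 windows were called in the genome, and 0 of 12 in the domain had an unadjusted p under 0.05, against 5.17% of genome windows. With so few windows, a count of 0 does not set the domain apart from those shares.

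Of the 12 windows, 8 were higher and 4 lower in Chd8+/-, and the median difference was 3.11 points. These 12 lie at any level, for which no genome share of direction is given. The 6 near-50% windows were all higher, by 0.47 to 24.2 points, the largest from 2 libraries of each genotype. In the genome's windows at 30% to 70% the median difference was 1.80 points, with 80% of windows between -11.5 and 15.1 points. Of those genome windows 57.0% were higher in Chd8+/-, and whether the domain departs from that share was not tested. None of the 10 windows with all 6 samples had non-overlapping genotypes, against 4.96% of genome windows with Chd8+/- wholly above WT and 3.83% with it wholly below, or 6.84% and 3.63% among those at 30% to 70%. Grouped, the near-50% windows of the Snrpn interval averaged 57.3% ± 16.0 in Chd8+/- and 44.3% ± 8.06 in WT (exact permutation p = 0.3, n = 3 each), and those of the Ndn, Magel2, Mkrn3 interval 43.2% ± 7.35 in Chd8+/- and 39.5% ± 2.66 in WT (exact permutation p = 0.6, n = 3 each). The first difference, 12.97 points, was 8.33 points without replicate 3 and 22.2 in replicate 3. The second, 3.65 points, was 4.502 points without replicate 3 and 1.95 in replicate 3. With near-50% limits of 25% to 75% it was 1.48 points. Limits of 35% to 65% left only the window chr7:62068501-62069000, at 24.2 points with no replicate 3 in either genotype. The 4 flank windows, which lie within 5 kb of a near-50% window but outside 30% to 70%, averaged 20.7% ± 5.25 in Chd8+/- and 22.2% ± 4.43 in WT (SD, n = 3 each; exact permutation p = 0.5), a difference of 2.56 points without replicate 3 and -9.71 in replicate 3. All 80 CpGs of the Ndn, Magel2, Mkrn3 interval averaged 33.3% ± 3.24 in Chd8+/- and 31.8% ± 2.09 in WT (SD, n = 3 each), a difference of 1.44 points (SE 2.23; exact permutation p = 0.6), which was 3.75 points without replicate 3 and -3.17 in replicate 3. Over CpGs with at least 20 reads this difference was 5.03 points (exact permutation p = 0.1) and the genotypes did not overlap, and over CpGs covered in all 6 samples it was 4.72 points (exact permutation p = 0.3). No genome share of non-overlap is given for whole intervals or for a minimum of 20 reads. These exact tests covered 15 regions and windows that share CpGs, and their p-values are unadjusted.

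At single CpGs, 60 of 101 were higher and 41 lower in Chd8+/-, or 59.4% and 40.6%. Of 864621 autosomal CpGs, 36.7% were higher and 33.8% lower, and the others had no difference, so the shares are not directly comparable. Among the 48 at 30% to 70%, 31 were higher, or 64.6%, against 54.6% of 108021 autosomal CpGs at that level. Among the 55 with all 6 samples, 2 had every Chd8+/- library above every WT library, against 3.48% of such CpGs in the genome, and 2 had every one below, against 2.32%. Among genome CpGs at 30% to 70% the shares were 6.40% and 3.93%. The first 2 are the CpGs at 59672844 and 62000964 described above, and the others lie upstream of Mkrn3. The CpG at 62070034, 133 bp upstream, read 1.54%, 0% and 0% in Chd8+/- and 12.5%, 2.94% and 5.56% in WT. Its counts of 0 allow a level of up to 11.1% in Chd8+/- replicate 2 and 8.11% in Chd8+/- replicate 3. The CpG at 62070446, 545 bp upstream, read 26.7%, 15.4% and 20.4% in Chd8+/- and 33.9%, 27.1% and 38.9% in WT, from 86 to 207 reads. All 4 are named after their values were seen.

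The spread between libraries differed among the near-50% windows. For the 5 near-50% windows with all 6 samples, the SD over the samples had a median of 7.43 points and ran from 2.28 to 17.3, against a median of 11.2 points over 13618 genome windows at 30% to 70%, of which 80% lay between 5.94 and 19.9. The Snrpn start, at 17.3, was the widest of the 5. For CpGs with all 6 samples and a mean of 30% to 70%, the median range over the samples was 31.6 points for the 28 of the domain and 45.4 points for 69754 autosomal CpGs. Such spreads include counting error, and read depth was not matched between the domain and the genome. Where both strands of a domain CpG were listed, which held for 20 CpGs in 83 library values, the strands differed by a median of 15.4 points and by up to 69.2 points.

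Those promoters of neighbouring genes on chromosome 7 that could be placed were unmethylated where the domain was not. The starts of Ube3a, the ubiquitin ligase gene expressed from the maternal copy in neurons, of Gabra5, a GABA-A receptor subunit, and of Herc2, Nipa1, Nipa2 and Tubgcp5 were placed by the same CpG spacing, and all had at most 2.02% within 500 bp in every library. Their starts lie outside the 2 intervals, from position 55443873 to 58878498. Atp10a, Gabrg3 and Oca2 could not be placed. Placement of a neighbour needed at least 7 listed CpGs, a minimum not asked of Snrpn and Peg12, so neighbours with few listed CpGs dropped out. The placed sequences of neighbours held 13 to 38 CpGs, against 7 in that of Snrpn and 15 in that of Mkrn3. The contrast with the domain therefore covers CpG-rich neighbours only. Among other imprinted promoters, 3 had levels nearest to the 44.9% of Snrpn over 6 samples: Nnat on chromosome 2 with 52.7%, Plagl1 on chromosome 10 with 56.6% and Zrsr1 on chromosome 11 with 61.7%. Nnat encodes neuronatin and Plagl1 a zinc-finger transcription factor, and Zrsr1 is related to the splicing factor genes of the U2AF family. Nnat read 29.7%, 56.4% and 77.0% in Chd8+/- and 53.7%, 42.5% and 57.1% in WT, with Chd8+/- replicate 3 the highest library, as at Snrpn. Plagl1 read 39.7%, 79.2% and 49.4% in Chd8+/- and 41.3%, 71.6% and 58.3% in WT, and Zrsr1 read 39.6%, 86.1% and 63.1% in Chd8+/- and 62.7%, 51.9% and 67.0% in WT. At both of these Chd8+/- replicate 2 was the highest library, so no 1 library led at all 4 promoters. The placed promoters of Grb10 and Zdbf2 had 0.62% and 0.95% and were not intermediate, while Peg3, Mest, Nap1l5 and Inpp5f could not be placed. Grb10 and Zdbf2 have 2 RefSeq promoters each, and the other promoter of each could not be placed, so its level is not known.

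**Figure D5:**
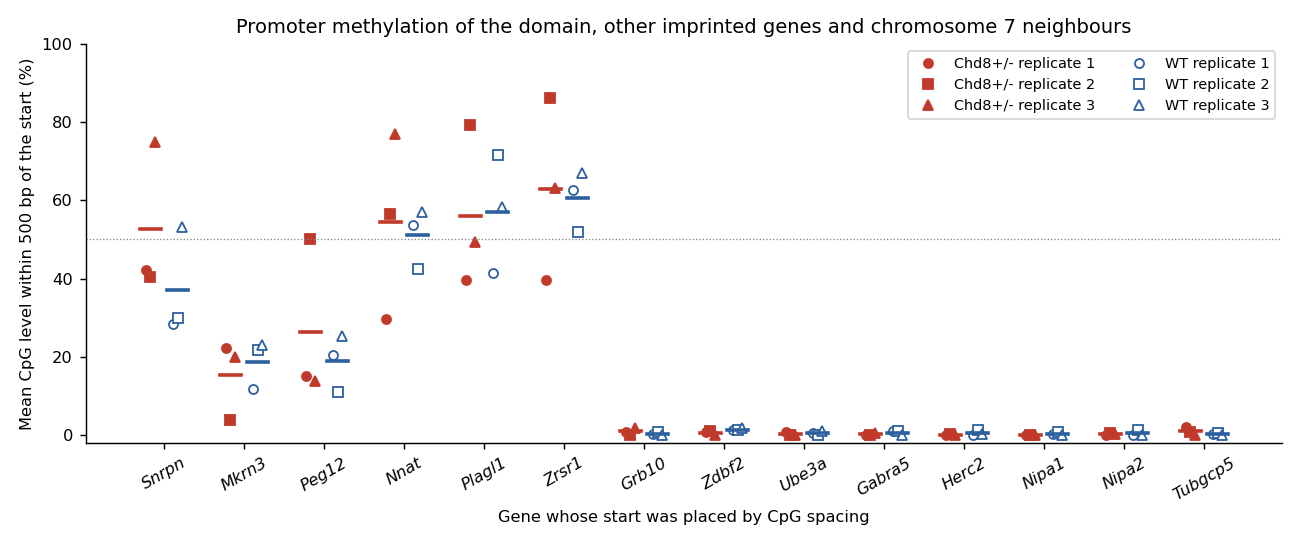
Mean CpG methylation level in percent within 500 bp of each placed gene start, with libraries as points (Chd8+/- filled at the left, WT open at the right of each gene) and genotype means as bars. Snrpn, Nnat, Plagl1 and Zrsr1 scatter around the dotted line at 50%, Mkrn3 and Peg12 lie lower, and the chromosome 7 neighbours Ube3a to Tubgcp5 stay at or under 2.02%.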

How the data were processed

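DNA methylation was measured by RRBS in 6 samples, 3 Chd8+/- and 3 WT. Per the labels' protocols DNA was cut with MspI, size-selected and bisulfite converted, and mm39, SAMtools 1.9, Bismark 0.20.0 and Trim Galore 0.4.4 are listed, without settings, in the submitters' processing notes. The authors deposited, per the file headers, a coverage count per cytosine and the percent of reads with C and with T, listing cytosines with at least 10 reads. Methylated reads were coverage times percent, whole within 0.02 reads for 99.961% of cytosines, and were rounded. PCR duplicates were not marked by molecular identifiers, so read counts are not independent molecules.

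Strands were merged by adding reads, after subtracting 1 base from minus-strand positions. The level of a region is the unweighted mean over CpGs with at least 10 reads. Windows were fixed at 500 bp. Region levels were compared by exact two-sided permutation tests, and windows on chromosomes 1 to 19 by edgeR 4.0.16 (quasi-likelihood, R 4.3.3) with a coverage term per sample, checked on simulated data. Alternatives were limma 3.58.1, other minimums, window sizes and ranges, and single samples left out.

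With no mm39 annotation used, gene starts were placed by matching the CpG spacing of 300-base RefSeq promoters (GRCm38.p6) to listed CpGs, requiring at least 7 matches and 2 more than the next place. That minimum, and placement within the interval from 3 matches for Snrpn and Peg12, were chosen after the data were seen. Named items were the 4 genes, each near-50% stretch with its extreme CpGs and neighbours, the 2 windows with the lowest edgeR p, and fixed lists of neighbouring and imprinted genes. The members and lists were chosen with earlier results of these data known. Cyfip1, Peg10, H19 and Peg13 had no entry in the promoter table.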

Additional observations from a re-analysis of the deposited data

How the results depend on the processing

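No window was called under any alternative run. For regions, 3 against 3 cannot reach a p under 0.05, and its smallest p, 0.1, was reached by 6 of 14 differences over CpGs covered in all 6 samples, 5 of 14 with at least 20 reads and 1 of 15 with reads summed over CpGs, many of which share CpGs; the Snrpn interval was among them each time. With CpGs of at least 20 reads in place of 10, flank windows changed sign to 4.13 points and the Mkrn3 promoter to 6.37. The window 17.8 kb upstream of Snrpn changed to -2.28, and the Peg12 promoter, which lost Chd8+/- replicate 2, to -1.80. With CpGs covered in all 6 samples, flank windows were at 2.77 and the Mkrn3 promoter at 6.37. With reads summed over CpGs, the Mkrn3 promoter was at 3.70 and the window upstream of Snrpn at -6.69, and with 250 bases either side of the start the Mkrn3 promoter was at 6.31. With replicates 1 and 2 only, flank windows were at 2.56, the window upstream of Snrpn at -2.69 and the window from 62027501 at -0.62. The cause was not tested.

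Leaving out 1 sample at a time, differences ran from 4.62 to 16.0 points in the Snrpn interval, 3.72 to 18.0 in its near-50% windows and 4.23 to 23.5 at the Snrpn promoter; the lowest values came without Chd8+/- replicate 3. They ran from -0.31 to 2.88 in the Ndn, Magel2, Mkrn3 interval, -0.58 to 6.04 in its near-50% windows, -4.56 to 1.02 in flank windows, -6.98 to 2.31 at the Mkrn3 promoter and -4.48 to 13.7 at the Peg12 promoter. Single windows ran from -2.69 to 3.17 (from 62027001), -0.91 to 2.56 (62027501), -7.66 to 1.72 (62070001), -0.53 to 8.60 (62112501), 0.51 to 10.3 (59672501) and 7.35 to 41.1 (62068501).

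Deviations of same-numbered samples correlated at -0.02, 0.01 and -0.01 over 13618 windows. These correlations cannot decide whether same-numbered samples belong together in another way. Replicate 3 of both genotypes shared the higher chromosome X share (2.56% and 2.58%). With the number as a replicate block, the Snrpn interval kept its difference of 11.2 points with an exact paired permutation p of 0.25, the smallest 3 pairs allow, and 0 windows were called.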

Other observations

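A further 83 listed CpGs of the domain did not reach 10 reads in enough samples. At 61998241, 61998260, 61998272 and 61998281, further out on the Ndn side, Chd8+/- replicate 1 and WT replicate 1 both read 0% and no other library was listed, with 12 reads per CpG in Chd8+/- replicate 1, which allows a level of up to 25%. The CpG at 61998401 read 68.8% in Chd8+/- replicate 1 and 20% in Chd8+/- replicate 2, and its neighbour at 61998399 read 12.5% in Chd8+/- replicate 1 and 20% in Chd8+/- replicate 2. Upstream of the Snrpn start, 9 such CpGs gave 17 library values, with a median of 91.7% and a range of 31.3% to 100%. The lowest values were at 59659751, which read 91.7% in Chd8+/- replicate 3 and 36.4% and 31.3% in WT replicates 1 and 3. At 62113547 to 62113596, close to the placed Peg12 start, 10 CpGs were listed in Chd8+/- replicate 2 at 0% to 31.6%, in WT replicate 2 at 0% and in WT replicate 3 at 0% to 100%.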
